A study of Mus musculus with 8 samples.

Results

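Squamous lineage transcription factors are the DNA-binding proteins that set up and maintain stratified epithelium such as epidermis. The 10 factors Trp63, Trp73, Sox2, Sox15, Pitx1, Tfap2a, Tfap2c, Grhl3, Klf4 and Klf5 were taken by symbol from a table of read counts for 24419 gene symbols, and each of the 10 was found there. They were followed in 8 bulk RNA libraries from 4 mouse models of endometrial cancer (EC), with 2 libraries per model. All models began as uterus organoids of mice that express Cas9 and EGFP from the CAG promoter, were edited in culture with lentiviral sgRNAs and retroviral cDNAs, and were grown in the uterus of female BALB/cA-nu mice, which lack mature T cells. An sgRNA against Trp53 was shared by all 4 models. TPM organoids also received a Myc cDNA, TPMCa (labelled TPMPik3ca) carried the TPM edits and a Pik3ca E545K cDNA, and TPMR1 (labelled TPMPik3r1) carried the TPM edits and an sgRNA against Pik3r1. TPK was made without introduced Myc, and further edits of the models are not described here. The labels call the samples tumor organoids, whereas the study's methods describe tumor tissue collected about 2 months after transplantation. The labels do not tie a library to an animal, and the study counts the libraries of a model as separate mice.

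In squamous epithelium, p63, the product of Trp63, is known as the factor that holds basal keratinocytes in their lineage, and its relative p73 binds similar DNA sites. AP-2 factors (Tfap2a, Tfap2c), Sox2, Pitx1, Klf4 and Klf5 are known to share many enhancers with p63 in keratinocytes and squamous tumors, and Grhl3 acts later, when keratinocytes build the barrier. Uterine glands are normally lined by a simple columnar epithelium, and squamous areas are a known feature of some endometrial cancers. Trp63 makes long (TA) and short (ΔN) forms of the protein from separate starts. Counts per gene do not tell these forms apart.

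Levels are given in CPM, the reads of a gene relative to those of its library after scaling by the trimmed mean of M values. Library totals lay between 15748396 and 26943611 counts (median 16636836.5), and the detection floor, set at 3 counts, was 0.116 to 0.198 CPM by library. The floor takes in only the error of counting. Myc was at 323 to 3074 CPM in the 6 libraries of TPM, TPMCa and TPMR1 and at 153 and 92.7 CPM in TPK. Trp53 RNA was detected in every library, at 33.1 to 131 CPM, and Pik3r1 RNA at 51.3 and 100 CPM in TPMR1, but an sgRNA need not remove RNA and these values check no edit. The labelled tissue could be checked against general epithelial markers (Epcam, Cdh1, Krt7, Krt8, Krt18 and Krt19). Their summed level was 5494 and 2938 CPM in TPM and 3235 and 4960 CPM in TPK, but 73.3 and 23.6 CPM in TPMCa and 6.44 and 27.4 CPM in TPMR1. Thus, the defining markers of epithelium were far lower in the last 4 libraries, although still detected, with Krt8 at 26.1 CPM in TPMCa replicate 1. The gland markers Pax8 and Foxa2 were at 5.60 to 44.0 CPM in TPM and TPK and at or under 0.317 CPM in TPMCa and TPMR1. The whole gland list, with Esr1, Pgr, Sox17 and Cdh16, did not follow them. It summed to 68.5 and 96.3 CPM in TPM, 102 and 240.1 CPM in TPK, 30.3 and 117 CPM in TPMCa and 144 and 172 CPM in TPMR1, and Esr1, the estrogen receptor, was at 141 and 132 CPM in TPMR1 against 30.1 and 50.9 CPM in TPM. The 2 TPMR1 libraries also stood apart in the summed markers of granulosa and steroid-making cells. The sum was 4985 and 449 CPM there and between 12.0 and 28.4 CPM in the other 6 libraries. Most of it came from the steroid genes Cyp11a1, Nr5a1 and Star, with means of 1967, 449 and 242 CPM in TPMR1. The other listed genes followed only in part. Inha was higher in TPMR1, but Fshr had 0 counts in every library and Amh overlapped between models. Foxl2 was at -1.25 and 5.05 log2 CPM in TPMR1 replicates 1 and 2. In bulk RNA, fewer cells of a type and less RNA per cell cannot be told apart, and this holds for every difference given here.

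**Figure D1:**
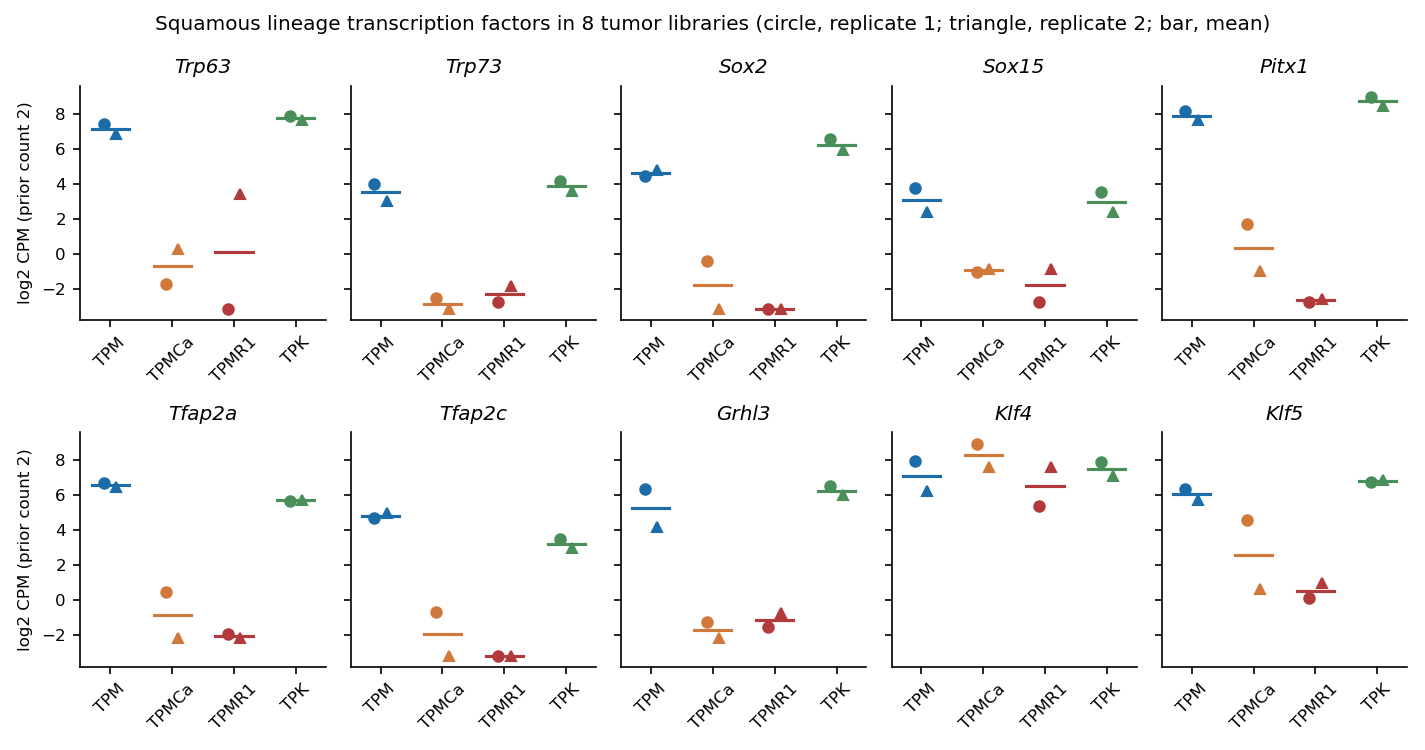
Level of each of the 10 factors in the 8 libraries, as log2 CPM with a prior count of 2 (y axis), for the models TPM, TPMCa, TPMR1 and TPK (x axis). Circles are replicate 1, triangles replicate 2 and bars the mean of both. The TPM and TPK points lie above the TPMCa and TPMR1 points for every factor except Klf4, and 1 TPMR1 point stands out for Trp63.

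The p53 family members head the set. Trp63 lies on the plus strand of chromosome 16 (chr16:25683763-25892102, GRCm38), with 8 annotated transcripts and 3 annotated transcript starts. It was at 169 and 114 CPM in TPM and at 231 and 201 CPM in TPK. In TPMCa it was at 0.190 and 1.11 CPM, and in TPMR1 at 0 and 10.4 CPM. Thus, the TPM and TPK libraries did not overlap with the other 4, and TPMR1 replicate 2, with 187 counts, stood apart from its partner library, which had 0 counts. Of the 15875 genes tested, 2706 differed more than 4-fold between the 2 TPMR1 libraries. The same number was 749 in TPM, 1294 in TPMCa and 972 in TPK. Trp63 was 6.26 ± 1.45 log2 units higher (SE) in TPM than in the mean of TPMCa and TPMR1 (adjusted p = 0.0464 from edgeR) and 6.86 ± 1.48 higher in TPK (adjusted p = 0.0281). Trp63 passed the threshold under 7 of 15 other settings for TPM (adjusted p from 0.000225 to 0.187) and under 8 of 15 for TPK (adjusted p from 3.12e-05 to 0.121). Without TPMR1 replicate 2 the Trp63 difference became 11.02 log2 units for TPM and 11.63 for TPK. Without TPM replicate 1 it was 5.92 for TPM with an adjusted p of 0.187, and without TPMCa replicate 1 it was 5.88 with an adjusted p of 0.172.

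Trp73, on the minus strand of chromosome 4 (chr4:154056253-154140208), encodes p73, which also drives multiciliated cells. Its level was 15.8 and 8.0 CPM in TPM, 17.6 and 11.9 CPM in TPK, 0.0633 and 0 CPM in TPMCa and 0.0386 and 0.167 CPM in TPMR1. So all 4 libraries of TPMCa and TPMR1 held between 0 and 3 counts of Trp73. It was 7.59 ± 0.81 log2 units higher in TPM (adjusted p = 0.0036) and 7.90 ± 0.82 higher in TPK (adjusted p = 0.0028) than in the mean of the other models. By summed counts, Trp73 was 398-fold lower in TPMCa than in TPM (95% counting interval from 71.0 to 15760) and 129-fold lower in TPMR1 (from 50.2 to 477). These intervals hold only the error of counting and not the spread between libraries. From edgeR the values were -8.33 log2 units in TPMCa (95% confidence interval from -11.12 to -5.54) and -6.84 in TPMR1 (from -9.31 to -4.37). Per kilobase of exon, Trp63 stood 7.08 to 11.1 times above Trp73 in the 4 TPM and TPK libraries. In TPMR1 replicate 2 that ratio was 41.1, from 187 counts of Trp63 and 3 of Trp73. Markers of multiciliated cells summed to between 3.12 and 21.5 CPM over the 8 libraries.

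Among the HMG-box factors, Sox2 is a partner of p63 in squamous tumors and Sox15 belongs to stratified epithelium. Sox2 is a gene of a single exon on chromosome 3 (chr3:34650405-34652461, plus strand) inside the long noncoding gene Sox2ot. It was at 21.5 and 27.5 CPM in TPM and at 93.5 and 59.8 CPM in TPK. TPMCa replicate 1 held 10 counts (0.633 CPM), and TPMCa replicate 2 and both TPMR1 libraries held 0. The difference was 9.04 ± 1.12 log2 units for TPM (adjusted p = 0.0088) and 10.68 ± 1.14 for TPK (adjusted p = 0.0048). Because both TPMR1 libraries were at 0, these fitted values depend on the prior count. With TPMR1 set to the floor of 3 counts per library they became 6.87 and 8.51, and Sox2 was at least 174-fold lower in TPMR1 than in TPM. Sox15 (chr11:69655314-69656727, plus strand) was at 13.6 and 5.14 CPM in TPM, 11.3 and 5.21 CPM in TPK, 0.380 and 0.445 CPM in TPMCa and 0.0386 and 0.444 CPM in TPMR1. It was higher by 4.89 ± 0.87 log2 units in TPM (adjusted p = 0.0195) and 4.71 ± 0.87 in TPK (adjusted p = 0.0177). Sox15 overlaps Mpdu1 on the opposite strand and the counting is not stated to use strand, so reads of the pair cannot be told apart.

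Pitx1, a homeobox factor known from hindlimb and oral epithelium, had the highest level per length of the 10 factors in TPM and TPK. It lies on chromosome 13 (chr13:55825051-55836192, minus strand) and overlaps an antisense gene and a long noncoding gene on its own strand. Pitx1 was at 287 and 196 CPM in TPM and at 501 and 344 CPM in TPK, against 3.17 and 0.389 CPM in TPMCa and 0.0386 and 0.0556 CPM in TPMR1. Each TPMR1 library held 1 count, so Pitx1 ran from the top of the set to the edge of detection. The difference was 9.63 ± 0.81 log2 units for TPM (adjusted p = 0.0015) and 10.43 ± 0.83 for TPK (adjusted p = 0.0012). By summed counts, Pitx1 was 5276-fold lower in TPMR1 than in TPM (95% counting interval from 1460.1 to 43574). This interval holds only the error of counting and not the spread between libraries. From edgeR the value was -12.16 log2 units (95% confidence interval from -15.17 to -9.15). Per kilobase, Pitx1 stood 5.36 and 5.41 times above Trp63 in the TPM libraries and 6.86 and 5.42 times above it in TPK. In TPMR1 replicate 2, with 1 count of Pitx1 beside 187 of Trp63, the ratio was 0.0169.

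The AP-2 factors bind GC-rich sites and are active in ectoderm and in keratinocytes. Tfap2a (chr13:40715302-40738376, minus strand, with antisense genes annotated over it) was at 101 and 88.3 CPM in TPM, 51.2 and 52.3 CPM in TPK, 1.27 and 0.111 CPM in TPMCa and 0.154 and 0.111 CPM in TPMR1. Tfap2c (chr2:172549593-172558622, plus strand) was at 25.3 and 31.2 CPM in TPM and at 11 and 7.77 CPM in TPK. It had 8 counts (0.506 CPM) in TPMCa replicate 1 and 0 counts in TPMCa replicate 2 and in both TPMR1 libraries. Both AP-2 genes thus had their highest values in TPM, unlike Trp63, Sox2, Pitx1 and Klf5, whose highest values were in TPK. Tfap2a was 8.25 ± 0.73 log2 units higher in TPM than in the mean of TPMCa and TPMR1 (adjusted p = 0.0018) and 7.38 ± 0.71 higher in TPK (adjusted p = 0.0022). Tfap2c was 9.40 ± 1.21 higher in TPM (adjusted p = 0.0097) and 7.81 ± 1.18 higher in TPK (adjusted p = 0.0133), or 7.22 and 5.63 with TPMR1 at the floor. Tfap2c was at least 200-fold lower in TPMR1 than in TPM. The level of Tfap2a per kilobase was 3.0 and 2.12 times that of Tfap2c in TPM and 3.51 and 5.05 times in TPK.

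Grhl3, a grainyhead-like factor of the late keratinocyte, is on the minus strand of chromosome 4 (chr4:135541888-135573630). It was at 79.9 and 17.9 CPM in TPM, 92.0 and 63.1 CPM in TPK, 0.317 and 0.111 CPM in TPMCa and 0.231 and 0.50 CPM in TPMR1. The TPM libraries were therefore further apart for Grhl3 than the TPK libraries, by 2.15 against 0.54 log2 units. It was 7.44 ± 0.73 log2 units higher in TPM (adjusted p = 0.0027) and 8.11 ± 0.75 higher in TPK (adjusted p = 0.0019).

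Of the Krüppel-like factors, Klf4 did not separate TPM and TPK from TPMCa and TPMR1, and Klf5 did. Klf4, which acts in the barrier of the upper epidermis but is also active in endothelium, macrophages and fibroblasts, lies on chromosome 4 (chr4:55527143-55532466, minus strand). It was at 242 and 75.7 CPM in TPM, 484 and 197 CPM in TPMCa, 42.0 and 195 CPM in TPMR1 and 240 and 138 CPM in TPK. The TPM and TPK ranges overlap with those of TPMCa and TPMR1. The difference of TPM from the mean of TPMCa and TPMR1 was -0.34 ± 0.76 log2 units (95% confidence interval from -2.14 to 1.47, adjusted p = 0.819). For TPK it was -0.09 ± 0.75 (from -1.87 to 1.70, adjusted p = 0.95). Klf5, known in basal and proliferating epithelium (chr14:99298691-99315036, plus strand), was at 83.0 and 52.2 CPM in TPM and at 107 and 116 CPM in TPK. TPMCa replicate 1 still had 23.6 CPM of Klf5, while TPMCa replicate 2 had 1.45 CPM and the TPMR1 libraries 0.964 and 1.83 CPM. Klf5 was 4.02 ± 0.88 log2 units higher in TPM (adjusted p = 0.0395) and 4.74 ± 0.90 higher in TPK (adjusted p = 0.0192). Its call for TPM held under 7 of 15 other settings (adjusted p from 0.000118 to 0.190) and that for TPK under 13 of 15 (from 2.53e-06 to 0.0978). Per kilobase, Klf4 stood 2.03 to 4.98 times above Klf5 in the TPM and TPK libraries and 35 to 232 times above it in the TPMCa and TPMR1 libraries.

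Promoters of 6 of the 10 factors matched the RefSeq table of GRCm38.p6, with 8 entries. Trp63, Pitx1, Tfap2c and Klf5 had no entry. Of the 8 windows of 250 bases before the start, 2 held the AP-2 motif GCCNNNGGC and 3 the Krüppel-like motif CCNCACCC, and the windows of Sox2, both of Tfap2a and the other one of Trp73 held no match to any of the 5 motifs searched. The 4 windows with a match are shown, written along the strand of the gene. They are those of Klf4, whose level did not separate TPM and TPK from the other models, and of Trp73, Sox15 and Grhl3. These last factors were at or under 0.50 CPM in TPMCa and TPMR1. Capitals mark matches on either strand to the AP-2 or the Krüppel-like motif, and no marked matches overlap.
Klf4 (chr4:55532476-55532725, minus strand): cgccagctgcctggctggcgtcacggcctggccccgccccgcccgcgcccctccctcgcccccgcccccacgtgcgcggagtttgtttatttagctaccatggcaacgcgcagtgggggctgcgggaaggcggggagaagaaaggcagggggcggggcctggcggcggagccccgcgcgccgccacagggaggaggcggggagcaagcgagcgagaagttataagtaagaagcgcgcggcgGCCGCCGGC
Trp73 (chr4:154139876-154140125, minus strand): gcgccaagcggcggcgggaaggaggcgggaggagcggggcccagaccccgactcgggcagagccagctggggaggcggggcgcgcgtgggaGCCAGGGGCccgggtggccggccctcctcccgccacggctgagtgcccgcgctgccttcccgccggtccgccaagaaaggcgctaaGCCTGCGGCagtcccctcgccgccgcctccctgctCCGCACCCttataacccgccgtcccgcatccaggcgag
Sox15 (chr11:69654787-69655036, plus strand): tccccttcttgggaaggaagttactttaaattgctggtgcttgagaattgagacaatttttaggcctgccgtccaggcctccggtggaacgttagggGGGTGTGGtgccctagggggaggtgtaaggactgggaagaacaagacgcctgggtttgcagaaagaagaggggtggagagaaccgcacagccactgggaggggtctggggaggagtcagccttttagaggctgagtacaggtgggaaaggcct
Grhl3 (chr4:135573633-135573882, minus strand): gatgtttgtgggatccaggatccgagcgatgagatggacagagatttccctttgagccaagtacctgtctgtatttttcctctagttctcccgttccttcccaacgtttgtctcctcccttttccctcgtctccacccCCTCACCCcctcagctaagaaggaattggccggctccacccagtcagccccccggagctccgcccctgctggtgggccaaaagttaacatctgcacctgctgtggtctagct
The Klf4 window held 1 AP-2 match and 74.0% G and C, and this Trp73 window 2 AP-2 matches, 1 Krüppel-like match and 77.2% G and C. The Sox15 and Grhl3 windows each held 1 Krüppel-like match, at 55.6% and 56.0% G and C, with a median of 52.4% over all promoters. Of 32841 mouse promoter windows of the same length, 13.73% held the AP-2 motif and 14.87% the Krüppel-like motif. Matches to the grainyhead motif AACCNGTT (1.79% of windows), a p53 family motif (CATG, 6 bases of any kind and CATG, 0.490%) and the Sox motif AACAAT (9.43%) were also searched, and none of them was in any of the 8 windows. A match is a description of the sequence, and binding was not measured.

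For the set as a whole, 9 of 10 factors were called higher in TPM than in the mean of TPMCa and TPMR1 and 0 lower, where 7.44% of the 15875 genes tested were called higher and 1.45% lower. The median of the 10 differences was 7.52 log2 units, or 7.04 with models at 0 set to the floor, against -0.02 over all genes. In TPK, 9 of 10 were likewise called higher, where 10.3% of all genes were called higher and 4.06% lower, with a median of 7.59, or 7.12 with the floor, against -0.00 over all genes. Both comparisons use the same TPMCa and TPMR1 libraries. In each of them, the same 9 factors had both libraries above all 4 of the others, as did 19.4% of all genes for TPM and 22.4% for TPK. Trp73, Sox2, Pitx1, Tfap2a and Grhl3 were called in both comparisons under all 15 other settings run. In some fits with 1 library left out, Trp63, Sox15, Tfap2c and Klf5 were no longer called. Such a fit estimates the spread anew for all genes, so the loss may not be particular to these factors. General epithelial markers moved with these results: 6 of 6 were called higher in TPM and 6 of 6 in TPK, and their part in the results was not tested.

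**Figure D2:**
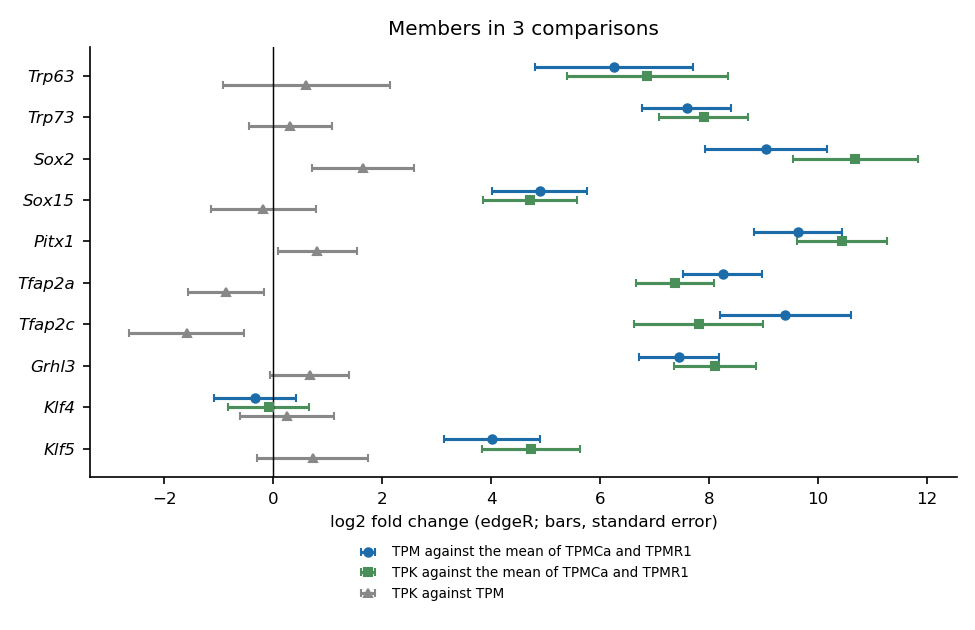
Log2 fold change (x axis) of each factor (y axis) with its standard error, from edgeR, for TPM (circles) and TPK (squares) against the mean of TPMCa and TPMR1 and for TPK against TPM (triangles). Klf4 sits near 0 in all 3 comparisons, and the other 9 factors lie between 4.02 and 10.68 for TPM and TPK and between -1.59 and 1.64 for TPK against TPM.

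Taking TPMCa and TPMR1 singly, fewer factors passed. In TPMCa against TPM, 4 of 10 were called lower (Trp73, Pitx1, Tfap2a and Grhl3), where 3.02% of all genes were called lower and 0.466% higher. Trp63 fell by 7.73 ± 2.11 log2 units on the fitted scale there but did not pass (adjusted p = 0.101). Over all genes, 2547 were called by DESeq2 in either direction and 553 by edgeR. DESeq2, fitted to all 8 libraries, called 8 of 10. The edgeR calls did not hold in every fit with 1 library left out, and each such fit estimates the spread anew for all genes. In TPMR1 against TPM, 6 of 10 were called lower (Trp73, Sox2, Pitx1, Tfap2a, Tfap2c and Grhl3), where 4.5% of all genes were called lower and 1.08% higher. Here Trp63 was at -4.78 ± 1.80 log2 units (adjusted p = 0.174). Over all genes, 2867 were called by DESeq2 in either direction and 886 by edgeR. DESeq2, again fitted to all libraries, called 9 of 10. Here too some edgeR calls were lost in fits with 1 library left out. For Klf5 the value was -2.43 ± 1.07 in TPMCa (adjusted p = 0.242) and -5.60 ± 1.25 in TPMR1 (adjusted p = 0.0538).

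Between TPMR1 and TPMCa no factor was called by edgeR, 4 had an unadjusted p under 0.05 (Sox2, Pitx1, Tfap2c and Klf5) and DESeq2 called 2 (Pitx1 and Klf5). Over all genes the edgeR count was also 0 (0% called), with 1867 genes at an unadjusted p under 0.05 and 772 called by DESeq2. The value for Pitx1 was -5.07 log2 units (95% confidence interval from -7.89 to -2.24, adjusted p = 0.364), and both TPMR1 libraries were below both TPMCa libraries, as for 17.8% of all genes. Klf4 was separated in the same way, at -1.52 log2 units (from -3.62 to 0.58, adjusted p = 0.530). Trp63 was at 2.94 log2 units (from -1.36 to 7.24, adjusted p = 0.545) with overlapping libraries.

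TPK and TPM shared the presence of the factors, and 0 of 10 were called between them by edgeR or DESeq2 and 0 had an unadjusted p under 0.05. Over all genes edgeR called 0 (0%), with 1138 at an unadjusted p under 0.05, and DESeq2 called 245. The intervals were wide. For Trp63 the difference was 0.60 log2 units (95% confidence interval from -3.04 to 4.25), for Sox2 1.64 (from -0.68 to 3.96) and for Pitx1 0.81 (from -0.92 to 2.53). Tfap2a was at -0.87 (from -2.54 to 0.79) and Tfap2c at -1.59 (from -4.19 to 1.0). Both TPK libraries were above both TPM libraries for Trp63, Sox2, Pitx1 and Klf5, as for 24.4% of all genes, and below them for Tfap2a and Tfap2c, as for 23.5%. Trp73, Sox15, Grhl3 and Klf4 overlapped.

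Per kilobase of exon, the order of levels in TPM ran from Pitx1 (90.9 ± 24.3 CPM per kb, SD, n = 2) and Klf4 (52.2 ± 38.6) to Tfap2a (19.3 ± 1.89), Grhl3 (17.5 ± 15.7), Trp63 (16.9 ± 4.63), Klf5 (13 ± 4.18), Sox2 (11.9 ± 2.07), Sox15 (10.9 ± 6.94), Tfap2c (7.68 ± 1.13) and Trp73 (2.15 ± 0.992). From Tfap2a to Sox15, each neighbour in this order was within 1 SD of the next. In TPK the order was Pitx1 (159 ± 41.7), Klf4 (62.1 ± 23.7), Sox2 (37.3 ± 11.6), Grhl3 (27.8 ± 7.32), Trp63 (25.7 ± 2.53), Klf5 (21.4 ± 1.31), Tfap2a (10.6 ± 0.155), Sox15 (9.59 ± 5.01), Trp73 (2.67 ± 0.724) and Tfap2c (2.55 ± 0.614). Of the neighbours in TPK, Sox2 and Grhl3, Grhl3 and Trp63, Tfap2a and Sox15, and Trp73 and Tfap2c lay within 1 SD of each other. Of the summed CPM per kb of the 10 factors, Pitx1 took 35 to 44.5% in the TPM and TPK libraries and Klf4 took 14.1 to 25.7%. In the TPMCa and TPMR1 libraries Klf4 took 95.8 to 98.3%.

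**Figure D3:**
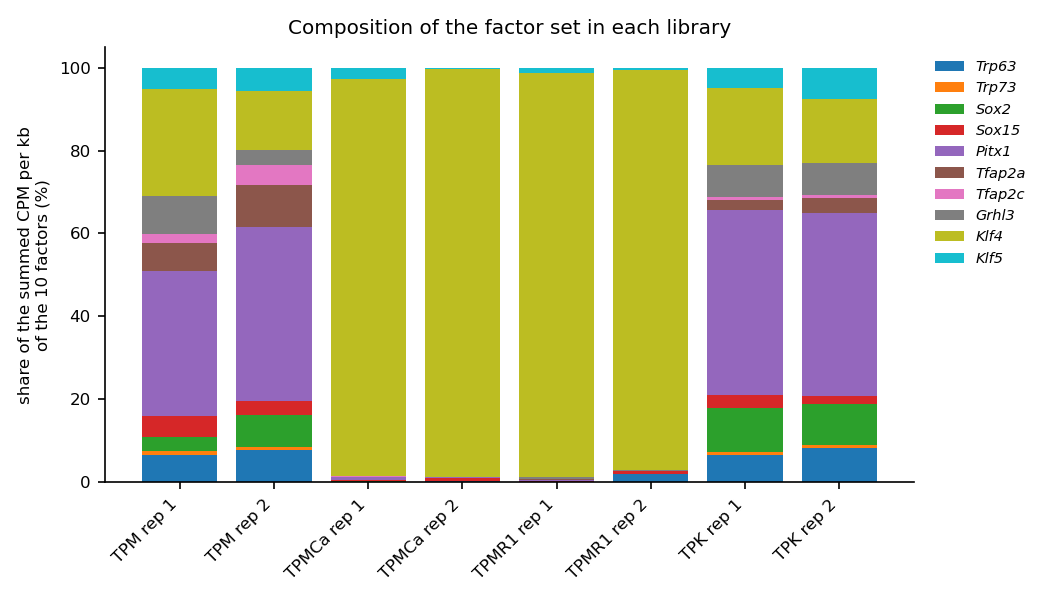
Share (%) of each factor in the summed CPM per kb of the 10 factors (y axis) in each library (x axis). Klf4 fills 95.8 to 98.3% of the TPMCa and TPMR1 bars, whereas Pitx1 has the widest segment, 35 to 44.5%, in the TPM and TPK bars.

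Library by library, the factors differed in how far they followed Trp63 within the low models. The TPMR1 libraries differed from each other more than 4-fold in 2706 of the 15875 genes tested. TPMR1 replicate 2 held 187 counts of Trp63, 3518 of Klf4, 33 of Klf5, 9 of Grhl3, 8 of Sox15, 3 of Trp73, 2 of Tfap2a, 1 of Pitx1 and 0 of Sox2 and Tfap2c. TPMR1 replicate 1 held 0 counts of Trp63, 1089 of Klf4, 25 of Klf5, 6 of Grhl3, 1 each of Sox15, Trp73 and Pitx1, 4 of Tfap2a and 0 of Sox2 and Tfap2c. In log2 CPM, replicate 1 minus replicate 2 was -6.57 for Trp63, -2.22 for Klf4 and -1.89 for Sox15. It was -0.89 for Trp73, -0.85 for Klf5, -0.84 for Grhl3 and -0.16 for Pitx1. So these had the same sign with unequal size, while Tfap2a was at 0.26. Pitx1 had 1 count in each of these libraries, so its sign came only from the unequal library totals. For Sox15, Trp73, Grhl3 and Pitx1 the values rest on at most 9 counts per library. In TPMCa replicate 1 Trp63 had 3 counts while Pitx1 had 50, Tfap2a 20, Sox2 10, Tfap2c 8 and Klf5 373. The partner library TPMCa replicate 2 had 20 counts of Trp63 and 7, 2, 0, 0 and 26 counts of these 5 factors, while Sox15 had 6 counts in replicate 1 and 8 in replicate 2. Likeness to Trp63 was measured as the root mean square difference of log2 CPM over the 8 libraries. Each gene was first centred on its own mean. Libraries at 0 counts enter at a value set by the prior count, and Trp63 itself had 0 and 187 counts in the TPMR1 libraries. Among the 10 factors Grhl3 was closest (1.70, rank 34 of all genes tested), followed by Trp73 (1.75, rank 41), Sox15 (2.21), Sox2 (2.22), Tfap2a (2.25), Tfap2c (2.35), Pitx1 (2.56) and Klf5 (2.72), with Klf4 furthest (4.26). The 5 genes most like Trp63 were Ptprz1, a receptor tyrosine phosphatase (1.19), Ikzf2, a zinc finger factor (1.23), Arhgef16, a guanine nucleotide exchange factor (1.26), Mal, a raft protein of apical membranes (1.27), and Vsnl1, a calcium sensor (1.30). Ptprz1 had 0 and 49 counts, and Mal 4 and 128 counts, in TPMR1 replicates 1 and 2. Of these 5 genes 0 stayed among the 5 most like Trp63 without TPMR1 replicate 1 or without TPMR1 replicate 2, and 1 without TPMCa replicate 1.

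The general epithelial markers gave a second scale. The 9 factors other than Klf4 summed to 797 and 540 CPM in TPM and 1114 and 861 CPM in TPK, against 30.1 and 3.61 CPM in TPMCa and 1.47 and 13.5 CPM in TPMR1. As a percentage of the summed epithelial markers, the same 9 factors were at 14.5 and 18.4% in TPM, 34.4 and 17.4% in TPK, 41.1 and 15.3% in TPMCa and 22.8 and 49.3% in TPMR1. On this scale TPM overlapped with TPK and TPMCa, and both TPMR1 libraries were above both TPM libraries. In TPMCa and TPMR1 a single gene made up most of the sum in 3 libraries, since Klf5 gave 32.2 of the 41.1% in TPMCa replicate 1 and 15 of the 22.8% in TPMR1 replicate 1, and Trp63 gave 37.9 of the 49.3% in TPMR1 replicate 2. Trp63 was at 3.08 and 3.89% in TPM, 7.13 and 4.04% in TPK, 0.259 and 4.71% in TPMCa and 0 and 37.9% in TPMR1. Pitx1 was at 5.22 and 6.66% in TPM and 15.5 and 6.94% in TPK, and all 4 libraries of TPMCa and TPMR1 were lower, at 4.32, 1.65, 0.599 and 0.203%. Klf4 went the other way, with 2.58 to 7.43% in TPM and TPK and 652 to 832% in TPMCa and TPMR1. So did Klf5, with 1.51 to 3.30% in TPM and TPK and 6.12 to 32.2% in TPMCa and TPMR1. Sox15 did as well, at 0.105 to 0.350% in TPM and TPK and 0.518 to 1.88% in TPMCa and TPMR1. These percentages were chosen after the levels were seen, rest on few counts in TPMCa and TPMR1, and were given no test.

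**Figure D4:**
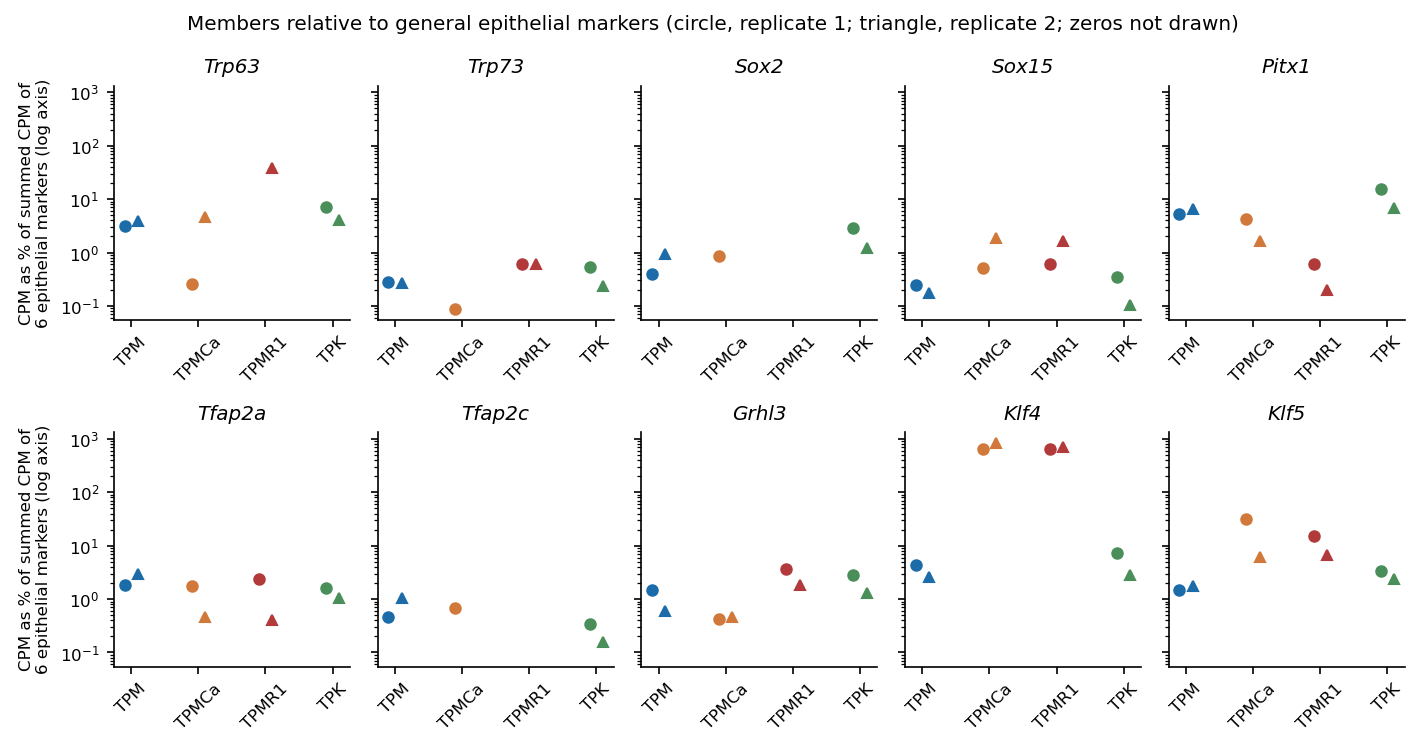
CPM of each factor as a percentage of the summed CPM of 6 general epithelial markers (y axis, log scale) in the 4 models (x axis). Circles are replicate 1 and triangles replicate 2, and values of 0 are not drawn. Klf4 is above 652% in TPMCa and TPMR1 and at or under 7.43% in TPM and TPK, whereas Trp63 ranges from 0 to 37.9% in TPMR1 alone.

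Paralogs of the factors were then read for the same families. Of 16 listed, 12 were tested, and 3 were called higher and 1 lower in TPM and in TPK against the mean of TPMCa and TPMR1, with medians of 0.52 and -0.64 log2 units. Grhl1 and Grhl2, the other grainyhead-like factors, were higher by 6.34 ± 0.61 (adjusted p = 0.0025) and 7.86 ± 0.62 (adjusted p = 0.0013) in TPM and by 5.15 ± 0.59 and 8.46 ± 0.64 in TPK. Sox21, a relative of Sox2 in hair and stratified epithelium, was higher by 8.81 ± 0.65 (adjusted p = 0.0011) in TPM and 9.53 ± 0.66 in TPK. Klf9, a factor with a role in the progesterone response of the uterus, was lower, by -1.55 ± 0.36 in TPM (adjusted p = 0.0464) and -2.09 ± 0.37 in TPK (adjusted p = 0.0154). Klf9 was at 20.9 and 34.5 CPM in TPM, 21.2 and 16.9 CPM in TPK, 123 and 66.8 CPM in TPMCa and 69.5 and 69.3 CPM in TPMR1. Klf2, known from endothelium, and Klf6 were at 775 and 776 CPM in TPMCa replicate 1, beside 484 CPM of Klf4 in that library. Neither was called, with Klf2 at -3.55 ± 0.92 log2 units in TPM (adjusted p = 0.0639) and -2.54 ± 0.87 in TPK (adjusted p = 0.0978). Tfap2b was seen at 14.7 CPM in TPK replicate 1 and at most 0.317 CPM elsewhere, so its signal came from 1 library.

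Other factors of the epidermal program followed in part. Of 21 tested, 11 were called higher in TPM and 12 in TPK, and 0 lower in either, with medians of 4.46 and 4.19. Elf3 and Ehf, ETS factors of epithelia, were at 372 to 605 and 305 to 899 CPM in the TPM and TPK libraries. Elf3 was higher by 7.06 ± 0.97 in TPM (adjusted p = 0.0081) and Ehf by 7.24 ± 1.20 (adjusted p = 0.0148). Cebpa, which acts in differentiating keratinocytes and also in myeloid cells, changed less, by 1.44 ± 0.33 (adjusted p = 0.0464) and 1.43 ± 0.33. Zfp750, a differentiation factor and p63 target, was at 104 to 166 CPM in TPM and TPK and at 42.6 CPM in TPMR1 replicate 1, where Trp63 had 0 counts, against 0.222 to 0.570 CPM in the other TPMCa and TPMR1 libraries. Ehf was also detected in that library, at 10.2 CPM.

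Among 22 p63 targets tested, 11 were called higher in TPM and 12 in TPK and 0 lower, with medians of 4.78 and 3.55 log2 units. Genes such as Dlx3, Zfp750, Bnc1 and Satb1 are in this list and in that of epidermal factors. Krt14, a basal keratin, was at 5377 and 1538 CPM in TPM, 6515 and 4356 CPM in TPK and 0.945 to 5.57 CPM in TPMCa and TPMR1, a difference of 10.78 ± 0.94 for TPM (adjusted p = 0.0017) and 11.44 ± 0.96 for TPK. Krt5, its partner keratin, was at 0 CPM in both TPMR1 libraries, replicate 2 with its 187 counts of Trp63 included. Dsp, a desmosome protein, was higher by 11.14 ± 0.91 in TPM (adjusted p = 0.0014) and 10.29 ± 0.88 in TPK. Perp, a desmosome gene also known as a p53 target, was higher by 9.24 ± 1.29 (adjusted p = 0.0082) and 9.18 ± 1.28. Pvrl1, the adhesion gene now named Nectin1, was higher by 3.15 ± 0.61 (adjusted p = 0.0253) and 3.91 ± 0.62, and was at 67.6 CPM in TPMR1 replicate 1 against 7.91 to 11.8 CPM in the other TPMCa and TPMR1 libraries. In TPMCa and in TPMR1 against TPM, 10 of 22 targets were called lower in each.

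Cofactors of p63, which most cells express, moved little. Only Ppp1r13l (iASPP) of 5 was called, higher by 3.13 ± 0.30 in TPM (adjusted p = 0.0024) and 2.95 ± 0.30 in TPK (adjusted p = 0.0026), and the list's medians were 0.26 and 0.37. Itch, a ubiquitin ligase that acts on p63, was at 58.2 to 122 CPM in every library. Among the tested genes of a differentiation list, the desmoglein Dsg3 included, 8 of 9 were called higher in TPM and 6 of 9 in TPK. Sprr1a, a cornified envelope protein, was at 2930.1 and 469.8 CPM in TPM and 3179 and 1478 CPM in TPK, with 0.167 to 2.78 CPM in TPMCa and TPMR1. Krt10, a suprabasal keratin, was at 2939.8 and 27.7 CPM in the 2 TPM libraries and at 334 and 108 CPM in TPK. Tgm1, which crosslinks the envelope, was higher by 4.82 ± 0.92 in TPM (adjusted p = 0.0245) and 5.71 ± 0.95 in TPK. The TPM libraries were thus further apart in Krt10 than in Trp63, which differed by 0.57 log2 units between them.

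**Figure D5:**
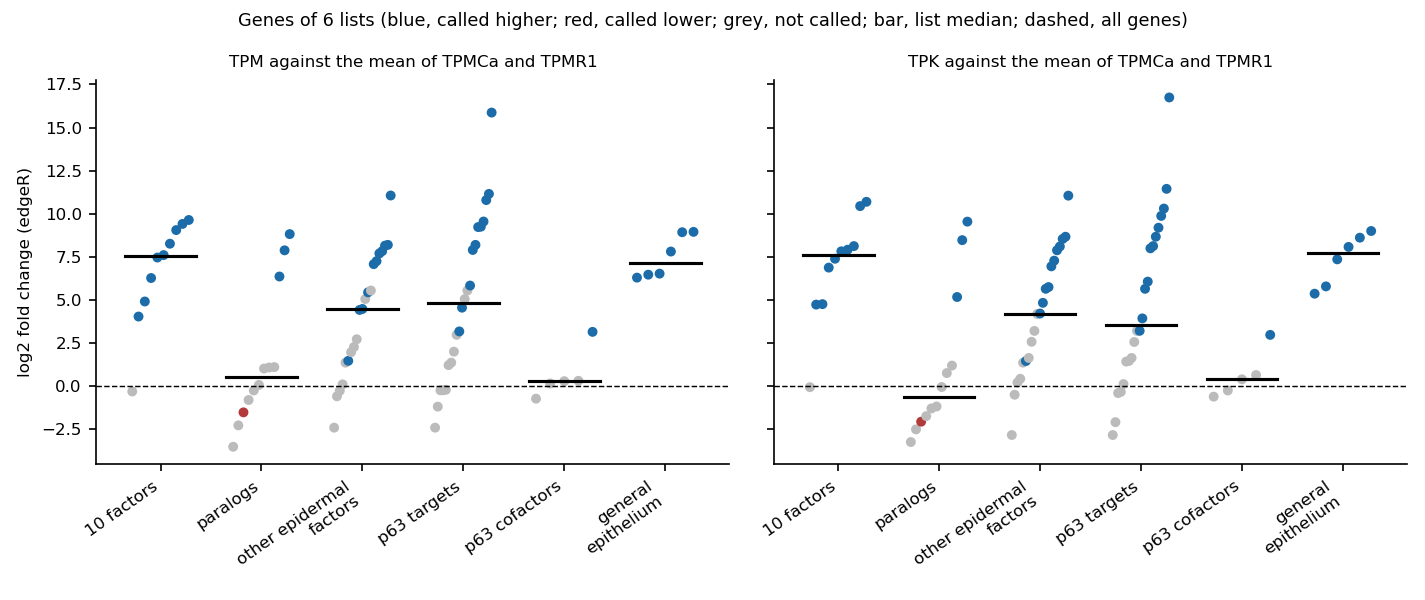
Log2 fold change from edgeR (y axis) of each tested gene of 6 lists (x axis) in TPM (left) and TPK (right) against the mean of TPMCa and TPMR1. Blue points were called higher, red lower and grey not called, bars are list medians and the dashed line is the median of all genes. The 10 factors have medians of 7.52 and 7.59 and the p63 cofactors 0.26 and 0.37, and 6 of 6 general epithelial markers are blue in each panel.

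Markers of other cells varied between libraries. Fibroblast markers summed to 6367 and 2405 CPM in TPM, 9917 and 2442 CPM in TPK, 8505 and 16582 CPM in TPMCa and 872 and 6578 CPM in TPMR1. Endothelial markers summed to 50.1 to 141 CPM in TPM and TPK and to 145 to 599 CPM in TPMCa and TPMR1, with no overlap. Macrophage markers summed to 249 to 3973 CPM, neutrophil markers to 12.1 to 1981 CPM, smooth muscle markers to 34.4 to 790 CPM and oocyte markers to 0.0659 to 12.8 CPM over the 8 libraries, so that the lowest oocyte sum was under the detection floor. The part of these cells in the level of Klf4, Klf2 or Klf6 was not tested.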

How the data were processed

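The analysis covered 8 RNA-seq libraries. Per the labels the RNA was polyadenylated, and per the study's methods the company trimmed the reads and the authors aligned them to mm10 with STAR. The values used were deposited raw read counts per gene symbol, made by the authors. The program that counted, its annotation and its use of strand are not given in the sources used here. A second deposited table, of counts the authors normalized with DESeq2, was not used. The columns headed TPMS were read as TPM. All 8 count columns were used.

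The 10 factors and the gene lists were chosen with earlier results of these data known. The main test was edgeR 4.0.16 (R 4.3.3) by quasi-likelihood on the 8 libraries, with TMM scaling, filterByExpr and model as the only term. It was fitted to 15875 of the 24419 genes, and 4109 of the genes left out had 0 counts in every library. P-values were adjusted by Benjamini-Hochberg over all genes tested, and a gene was called at an adjusted p under 0.05. Standard errors are the log2 fold change over the square root of F. The test was tried on simulated counts. Coordinates and exon lengths are from GENCODE M21 on GRCm38. The exon length is the union of all annotated exons of a gene. It can exceed the length of the transcripts expressed, so values per kilobase depend on this choice. Of each list, up to 4 called genes with the highest mean log2 CPM were named, with paralogs of the factors. Other genes named (Krt5, Zfp750, Bnc1, Dlx3, Satb1 and Itch among them) were chosen after their values were seen. Alternatives were DESeq2 1.42.0, its size factors, library size alone, other filters, only the models compared, a replicate block and leaving out each library. Some engineered and listed genes are not reported here.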

Additional observations from a re-analysis of the deposited data

How the results depend on the processing

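Over 15 alternatives, the 9 factors higher in TPM and TPK than in the mean of TPMCa and TPMR1 kept their direction. Called counts moved as follows. With DESeq2, 8 factors were called in TPMCa against TPM (4 by edgeR) and 2 in TPMR1 against TPMCa (0 by edgeR). Over all genes DESeq2 called 2547 and 772 in these comparisons, and edgeR 553 and 0. With only the models compared in the fit, 7 were called in TPMCa against TPM and 2 in TPMR1 against TPM (6 with all libraries). Leaving out 1 library at a time also changed the called counts, except in TPK against TPM and TPMR1 against TPMCa. Such a fit leaves 1 library in a model and estimates the spread anew for all genes. The share of all genes called is not given for these fits or for the fit of only the models compared. Whether the changes are particular to the factors therefore cannot be told. The cause was not tested.

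The replicate numbers did not pair the libraries, since differences between replicates 1 and 2 correlated at -0.069 to -0.0082 over the 6 pairs of models. With a replicate block, 7 factors were called in TPM and 9 in TPK against the mean, 4 in TPMCa and 5 in TPMR1 against TPM, and 0 in both other comparisons. The share of all genes called in this fit is not given here either.

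With 1 library left out, there were 18 cases in which a single value turned sign, with some values turning in more than 1 case. None of the values concerned was called with all libraries in the fit. The ranges with 1 library left out ran, on the log2 scale, from -1.42 to 0.41 for Klf4 in TPM and from -0.56 to 0.66 in TPK against the mean, from -1.92 to 0.68 for Klf4 in TPMR1 against TPM and from -0.36 to 1.31 in TPK against TPM. In TPK against TPM they ran from -0.86 to 0.67 for Sox15, from -0.094 to 0.87 for Trp73 and from -0.042 to 2.10 for Grhl3. In TPMR1 against TPMCa they ran from -3.16 to 0.25 for Tfap2a, from -3.20 to 0.11 for Sox15 and from -6.60 to 4.71 for Trp63, the lowest without TPMR1 replicate 2, which leaves a TPMR1 library with 0 counts. Sox2 and Tfap2c gave no value in TPMR1 against TPMCa without TPMCa replicate 1, since every remaining library was at 0. With 2 libraries per model, the lone library left in a model was assumed to vary like the others. Depth sets a floor of 0.116 to 0.198 CPM, and Trp73 was at or under 3 counts in each TPMCa and TPMR1 library.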
